A study of Mus musculus with 36 samples.

Results

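The genes described here are 10 genes of the melanocyte pigment pathway, measured in the mouse cochlea: Tyr, Tyrp1, Dct, Mlana, Pmel, Mitf, Kit, Slc45a2, Slc24a5 and Gpr143. They were taken by symbol from the deposited count table of 39017 genes, whose Ensembl identifiers were matched to GENCODE M21, and all 10 were found. The study measured RNA of the cochlea, which holds the sensory cells for sound, in adrenalectomized mice (ADX, whose adrenal glands were removed) and in sham-operated mice. All animals were CBA/Sca mice aged 12 weeks, and no other allele or agent is named in the labels. Tissue was taken at CT04, CT08, CT12, CT16, CT20 and CT24, where CT is circadian time in hours, 3 libraries to a group, which makes 36. The series' title names glucocorticoid-dependent circadian genes as its subject, so the comparisons are ADX against sham and the change over the day. Whether the 3 libraries of a group came from separate animals is not stated, and p-values therefore cover only the variation among the libraries at hand.

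In the cochlea, pigmented cells of neural crest origin sit as intermediate cells in the stria vascularis, the epithelium of the lateral wall that secretes the potassium-rich endolymph. Intermediate cells carry the potassium channel Kcnj10 (Kir4.1), through which the endocochlear potential is generated, and they lie between the marginal cells and the basal cells of the stria. Pigmented cells are also found in the vestibular part of the inner ear. Melanin is made in melanosomes: Tyr (tyrosinase) catalyses the first step, Dct (dopachrome tautomerase) and Tyrp1 act after it, Pmel forms the fibrils on which pigment is laid down, and the transcription factor Mitf, under the receptor tyrosine kinase Kit, drives these genes.

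Mitf binds a short element, the M-box, in front of several pigment genes, and the promoter stretches are shown here because they are what the tyrosinase family and Slc24a5 have in common in sequence. RefSeq promoters of GRCm38.p6 were at hand for 6 of the 10 genes (Tyr, Tyrp1, Dct, Slc24a5, Kit and Mitf). Capitals mark TCATGTG or its reverse complement CACATGA, and each sequence runs 5′ to 3′ on the strand of its gene. The stretches of Tyr (chr7:87493513-87493762, minus strand), Dct (chr14:118052247-118052496, minus strand) and Slc24a5 (chr2:125067877-125068126, plus strand) are the 250 bases before the RefSeq start. For Tyrp1 only the 30 bases around the element are given (chr4:80834154-80834183, plus strand), which lie in front of the RefSeq start but in the first exon of a longer GENCODE M21 transcript.
Tyr: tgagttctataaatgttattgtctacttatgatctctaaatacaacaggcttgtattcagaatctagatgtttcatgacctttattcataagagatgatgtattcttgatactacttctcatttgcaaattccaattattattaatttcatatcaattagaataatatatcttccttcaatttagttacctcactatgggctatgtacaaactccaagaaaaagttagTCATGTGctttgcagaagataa
Tyrp1: gtggggagggagTCATGTGctgcctagtag
Dct: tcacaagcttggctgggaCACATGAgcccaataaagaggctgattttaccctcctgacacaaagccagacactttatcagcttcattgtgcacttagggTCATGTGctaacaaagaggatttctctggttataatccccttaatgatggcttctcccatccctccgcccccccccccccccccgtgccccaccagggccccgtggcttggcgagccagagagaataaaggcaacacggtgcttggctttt
Slc24a5: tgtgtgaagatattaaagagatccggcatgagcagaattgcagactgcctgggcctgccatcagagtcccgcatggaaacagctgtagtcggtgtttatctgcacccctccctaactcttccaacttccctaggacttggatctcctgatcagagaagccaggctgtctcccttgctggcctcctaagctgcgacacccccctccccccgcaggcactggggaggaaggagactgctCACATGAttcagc
The element ended 16 bases before the start of Tyr and 41 bases before that of Tyrp1. Dct had the element as written 151 to 145 bases before the start, and its reverse complement 232 to 226 bases before it. Slc24a5 had the reverse complement 13 to 7 bases before the start. The 250 bases before the starts of Kit and Mitf had no match. Among all 32851 RefSeq promoters, 3.25% held the element on either strand in the same 250 bases. The E-box CACGTG, bound by the core clock factors (6.02% of promoters, either strand), the D-box TTATGTAA (0.819%, either strand) and the full consensus of the glucocorticoid response element (0.00913%, either strand) were also searched, and no window of these 6 genes held those letters. None of these motifs overlapped another in the windows, and a match in letters is a description of the sequence only.

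By GENCODE M21 annotation of mm10, all 10 are protein-coding genes, each on a different chromosome. The enzymes are annotated as Tyr (ENSMUSG00000004651) at chr7:87424771.0-87493512.0, minus strand, Tyrp1 (ENSMUSG00000005994) at chr4:80834123.0-80851719.0, plus strand and Dct (ENSMUSG00000022129) at chr14:118012790.0-118052244.0, minus strand. The melanosome proteins are annotated as Pmel (ENSMUSG00000025359) at chr10:128704195.0-128720238.0, plus strand and Mlana (ENSMUSG00000024806) at chr19:29697824.0-29708634.0, plus strand. The transporters and the receptor of the melanosome are annotated as Slc45a2 (ENSMUSG00000022243) at chr15:11000721.0-11029233.0, plus strand, Slc24a5 (ENSMUSG00000035183) at chr2:125068124.0-125088677.0, plus strand and Gpr143 (ENSMUSG00000025333) at chrX:152781921.0-152808646.0, plus strand. The regulators are annotated as Mitf (ENSMUSG00000035158) at chr6:97807052.0-98021349.0, plus strand and Kit (ENSMUSG00000005672) at chr5:75574916.0-75656722.0, plus strand.

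Library totals lay between 20351081 and 28947793 counts in ADX and between 18999408 and 28995197 counts in sham. All 10 genes passed the filter on low counts, which kept 22556 genes. Levels are given as CPM (counts scaled by TMM library size) and, between genes, as RPKM (CPM per kilobase of the deposited gene length). Some deposited lengths are not whole numbers, such as 2115.17 bases for Kit, and RPKM values, their order and their ratios depend on these lengths. Cochlear markers were present in every library: the strial marginal cell list summed to between 4081 and 5015 CPM in ADX and between 4169 and 6190.3 CPM in sham, and the hair cell list to between 132 and 187 CPM in ADX and between 123 and 221 CPM in sham. Some libraries held transcripts of other tissue. A list of 5 choroid plexus genes (Ttr, Folr1, Kl, Cldn2 and Clic6), chosen after the values were seen, summed to 1731 CPM in ADX CT12 replicate 3, to 5625 CPM in sham CT16 replicate 2 and to 1753 CPM in sham CT04 replicate 2, while the medians were 80.9 CPM in ADX and 82.5 CPM in sham. Skeletal muscle genes were high in 3 ADX libraries (CT20 replicate 3, CT12 replicate 1 and CT16 replicate 2), and the pituitary transcript Gh was highest in 1 ADX library (CT24 replicate 2) and 3 sham libraries (CT16 replicate 3 and CT08 replicates 2 and 3).

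Per unit of length, the pigment genes spanned nearly 3 orders of magnitude, and Dct stood far above the others. Dct averaged 248 ± 38.4 RPKM over the 36 libraries (SD), which was 6.34 times the mean of the next gene, Kit (39.2 ± 3.57 RPKM). Mitf (21.4 ± 2.36 RPKM), Slc45a2 (14.5 ± 2.04 RPKM), Mlana (12.0 ± 1.96 RPKM), Tyr (11.7 ± 2.01 RPKM) and Slc24a5 (6.58 ± 1.78 RPKM) followed. Gpr143 (1.47 ± 0.296 RPKM), Pmel (0.957 ± 0.347 RPKM) and Tyrp1 (0.291 ± 0.211 RPKM) were at the bottom. Of the neighbours in this order, Mlana and Tyr did not differ beyond their spread, since Mlana was the higher in 20 of 36 libraries. Each other gene was above the next one down in 32 to 36 libraries. Against all 22556 tested genes, Dct stood at the 98.4th percentile of mean RPKM and Tyrp1 at the 6.15th.

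**Figure D1:**
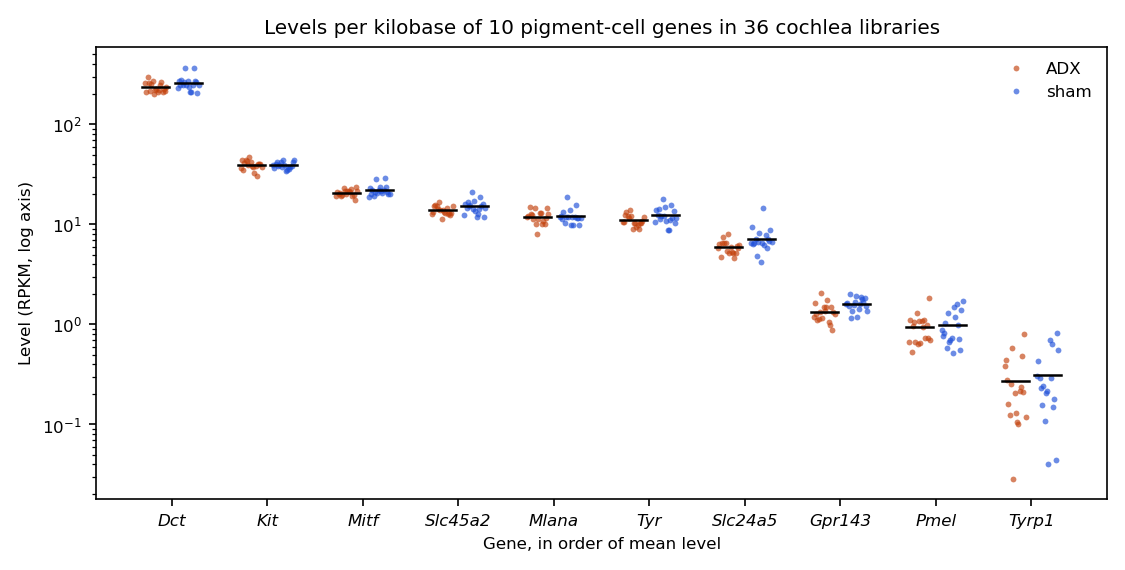
Level of each gene per kilobase in RPKM (log axis), with 1 point per library, ADX left of sham in each pair, and a bar at the mean of 18 libraries. Dct lies above all others with a mean of 248 RPKM, Tyrp1 lies lowest at 0.291 RPKM and has the widest scatter, and ADX and sham overlap for every gene.

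The 3 enzymes of the tyrosinase family were thus measured at very unequal levels. Of their summed RPKM, Dct made up 95.4 ± 0.579% in ADX and 95.4 ± 0.344% in sham (SD, n = 18 each). Tyr made up 4.49 ± 0.575% in ADX and 4.50 ± 0.341% in sham, and Tyrp1 0.110 ± 0.0837% in ADX and 0.124 ± 0.104% in sham. Tyrp1, whose product acts late in the synthesis of brown-black eumelanin, had between 1 and 40 counts per library (median 8.5). Its level exceeded the CPM that the filter asks for in 8 ADX and 10 sham libraries, and it was the member with the largest spread (a coefficient of variation of 72.6%). Kit was the steadiest, at 9.12%.

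The values of each gene, as lowest, median and highest of 18 libraries, were as follows. Tyr had 29.9, 35.1 and 45.6 CPM in ADX and 29.0, 39.4 and 59.2 CPM in sham. Dct had 450.1, 509.8 and 670.5 CPM in ADX and 464, 565 and 837 CPM in sham. Tyrp1 had 0.0499, 0.372 and 1.39 CPM in ADX and 0.0693, 0.409 and 1.43 CPM in sham. For the 3 enzymes the ranges of ADX and sham overlapped, with the highest libraries in sham: 5 sham libraries had more Tyr than any ADX library, 2 had more Dct and 1 had more Tyrp1.

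Of the proteins that build the melanosome, Pmel had 1.12, 2.04 and 3.96 CPM in ADX and 1.11, 1.80 and 3.69 CPM in sham. Mlana (MART-1, a small membrane protein that works with Pmel in melanosome maturation) had 5.02, 7.45 and 9.31 CPM in ADX and 6.10, 7.32 and 11.6 CPM in sham. Both ranges overlapped. Slc45a2, a transporter of the melanosome, had 33.7, 40.6 and 50.1 CPM in ADX and 35.4, 44.6 and 63.4 CPM in sham. Slc24a5, a potassium-dependent sodium-calcium exchanger needed for pigment, had 4.70, 5.98 and 8.25 CPM in ADX and 4.304, 6.78 and 14.7 CPM in sham. Gpr143, a receptor of the melanosome membrane that is mutated in ocular albinism, had 0.952, 1.41 and 2.23 CPM in ADX and 1.25, 1.74 and 2.19 CPM in sham, and 6 ADX libraries lay below every sham library.

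Mitf had 35.9, 42.2 and 48.1 CPM in ADX and 37.9, 43.2 and 58.9 CPM in sham. Kit had 65.1, 84.2 and 99.8 CPM in ADX and 72.6, 81.6 and 93.5 CPM in sham. These are the 2 members with well known roles outside pigment cells, Mitf in osteoclasts and mast cells and Kit in mast cells and blood progenitors. Markers of mast cells and osteoclasts were present: the mast cell list summed to between 47.3 and 59.5 CPM in ADX and between 47.3 and 58.7 CPM in sham, and the osteoclast list to between 376 and 570.3 CPM in ADX and between 398 and 734 CPM in sham. Their part in the levels of Mitf and Kit was not tested. The list of 5 genes of the retinal pigment epithelium, another pigmented tissue, summed to between 37.4 and 67.9 CPM in ADX and between 35.0 and 73.3 CPM in sham. Its genes were unequal: per library, Rpe65 had 0 to 19 counts, Rgr 0 to 10 and Lrat 4 to 16. Best1 had 70 to 130 counts and Rlbp1 746 to 1698.

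Over the mean of the 6 times, no pigment gene differed between ADX and sham at an adjusted p of 0.05 (edgeR's quasi-likelihood test, Benjamini-Hochberg over all tested genes), against 0.718% of all tested genes. DESeq2 and limma-voom also called 0 of the 10. Of the log2 fold changes 9 of 10 were negative, with a median of -0.13, where the median of all tested genes was 0.00, and 5 had an unadjusted p under 0.05, against 15.6% of all tested genes. The signs were not stable for all of these: Mlana, Mitf and Slc45a2 were positive with the strial marginal score as a covariate, Pmel with the otoconia score, Pmel and Tyrp1 with the megakaryocyte score, and Mlana and Pmel also when some single libraries were left out. Some lists of other cell types had the same sign over the mean of the 6 times, with 0 called in each. Negative were 10 of 10 strial marginal genes (median -0.09), 7 of 7 basal cell and spiral ligament genes (median -0.05) and 9 of 9 osteoclast genes (median -0.18). Other lists went the other way, also with 0 called. Positive were 6 of 7 Schwann cell genes (median 0.07), 8 of 9 skeletal muscle genes (median 1.70) and 4 of 4 tested keratinocyte genes (median 0.09). So were 3 of 3 tested retinal pigment epithelium genes (median 0.04). Of 8 mast cell genes, 4 were positive and 4 negative. The part of the osteoclast genes in the result was not tested. In bulk tissue, fewer pigment cells and less RNA per cell cannot be told apart. Tyr averaged 36.4 ± 4.65 CPM in ADX and 40.7 ± 7.74 CPM in sham (SD, n = 18 each), and its log2 fold change was -0.15 (95% interval -0.27 to -0.03, adjusted p = 0.196 by edgeR). Dct averaged 532 ± 59.8 CPM in ADX and 589.6 ± 101 CPM in sham, a log2 fold change of -0.14 (-0.26 to -0.02, adjusted p = 0.227 by edgeR). Slc45a2 averaged 41.4 ± 4.18 CPM in ADX and 45.1 ± 7.14 CPM in sham (-0.12, from -0.23 to -0.01, adjusted p = 0.281 by edgeR).

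The lowest fold changes were those of Slc24a5 and Gpr143. Slc24a5 averaged 6.04 ± 0.933 CPM in ADX and 7.35 ± 2.23 CPM in sham, a log2 fold change of -0.28 (95% interval -0.49 to -0.08, adjusted p = 0.155 by edgeR). Gpr143 averaged 1.44 ± 0.316 CPM in ADX and 1.73 ± 0.261 CPM in sham, a log2 fold change of -0.27 (-0.44 to -0.09, adjusted p = 0.115 by edgeR). With the skeletal muscle list as a covariate the Gpr143 value was -0.33 (adjusted p = 0.0485 by edgeR), the only alternative under which a pigment gene passed in this comparison. Kit stood at the other end, with 83.2 ± 8.83 CPM in ADX and 82.5 ± 6.26 CPM in sham and a log2 fold change of 0.01, whose 95% interval of -0.07 to 0.09 was the narrowest of the 10. Mitf had -0.09 (-0.18 to 0.00), Mlana -0.02 (-0.16 to 0.12) and Pmel -0.05 (-0.40 to 0.30). The interval of Tyrp1, -0.94 to 0.44, was the widest.

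**Figure D2:**
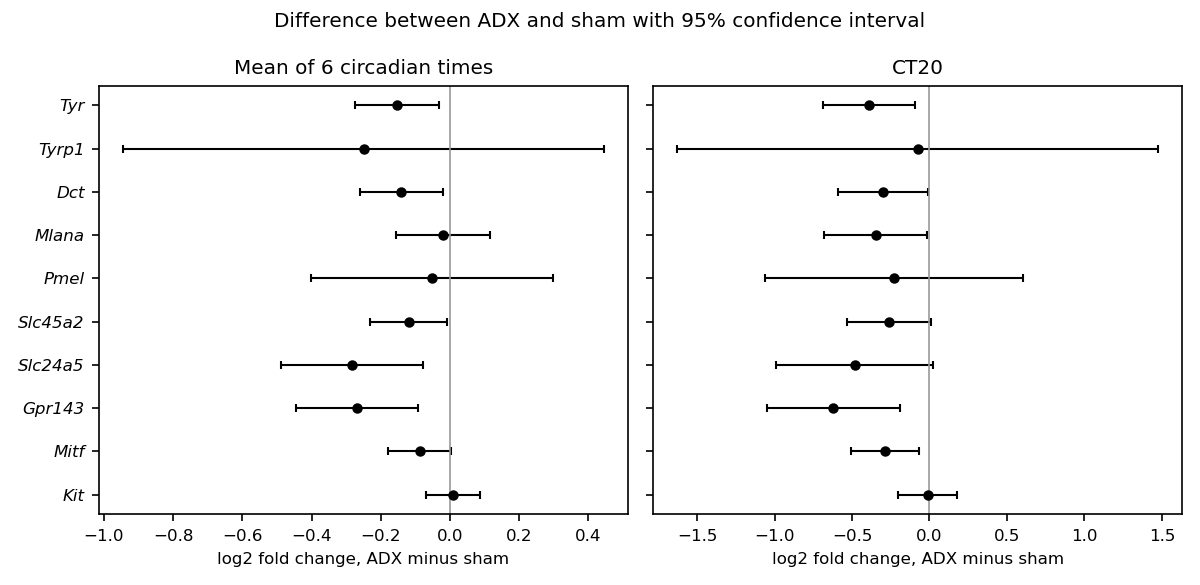
Log2 fold change, ADX minus sham, of each gene over the mean of the 6 times (left) and at CT20 (right), with 95% intervals from the edgeR fit. Points left of 0 are lower in ADX. At CT20 all 10 points are below 0, from -0.62 for Gpr143 to -0.01 for Kit; those of Tyrp1, Pmel and Kit turned positive when 1 library was left out.

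At single times, where each group has 3 libraries, 0 of 10 pigment genes were called at any time by edgeR, DESeq2 or limma-voom. The background at CT20 was 0.00443% by edgeR, and at CT04, CT08, CT12, CT16 and CT24 it was 0%. At an unadjusted p under 0.05 there were 0 genes at CT04 (9.30% of tested genes), 0 at CT08 (4.28%), 4 at CT12 (5.41%), 1 at CT16 (7.95%), 5 at CT20 (7.49%) and 1 at CT24 (5.74%). At CT20 all 10 log2 fold changes were negative, with a median of -0.29 against 0.00 over all tested genes, and 5 (Tyr, Dct, Mlana, Mitf and Gpr143) had an unadjusted p under 0.05. The sign of 3 of the 10 turned when 1 library was left out: Tyrp1 was 0.87, Pmel 0.13 (both without sham CT20 replicate 1) and Kit 0.088 (without ADX CT20 replicate 2), and Tyrp1 was 0.14 with limma-voom. Some other lists had the same sign at CT20. Negative were 10 of 10 strial marginal genes (median -0.18) and 7 of 7 basal cell and spiral ligament genes (median -0.14). So were 6 of 6 intermediate cell genes (median -0.20) and 8 of 9 osteoclast genes (median -0.53). All 9 skeletal muscle genes were positive (median 5.52), and ADX CT20 replicate 3 is one of the muscle-high libraries. None of these list genes was called at CT20, and the part of osteoclast genes in the result was not tested. Tyr at CT20 had 29.9, 32.8 and 33.8 CPM in ADX and 36.6, 38.4 and 51.3 CPM in sham, and the groups did not overlap (log2 fold change -0.39, adjusted p = 0.410 by edgeR). Gpr143 had 1.06, 1.13 and 1.61 CPM in ADX and 1.82, 1.96 and 2.01 CPM in sham, again without overlap (-0.62, adjusted p = 0.302 by edgeR). Mlana had 6.23, 6.27 and 6.69 CPM in ADX and 7.26, 7.43 and 9.74 CPM in sham (-0.35, adjusted p = 0.631 by edgeR). Slc24a5 was the fourth of these genes whose ADX libraries all lay below the sham libraries at CT20, with 4.70, 5.25 and 5.26 CPM in ADX and 5.96, 7.34 and 7.94 CPM in sham. Of all tested genes, 4.132% had every ADX library below every sham library at CT20. No pigment gene had every ADX library above every sham library at CT04 (8.073% of tested genes), CT08 (4.447%), CT12 (5.090%), CT16 (7.098%) or CT20 (5.121%), and none had them all below at CT08 (3.928%) or CT12 (5.342%).

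Dct at CT20 had 478, 555 and 599 CPM in ADX and 554, 619 and 837 CPM in sham, so the groups overlapped (-0.30, adjusted p = 0.649 by edgeR). Its highest sham value came from sham CT20 replicate 2, which also had the highest Mitf (58.9 CPM) and the second highest strial marginal score of all libraries (0.367, a mean centred log2 level). Without that library the log2 fold changes at CT20 were -0.11 for Dct, -0.22 for Tyr, -0.20 for Mlana and -0.16 for Mitf. The CT12 comparison has a library of the same kind. There Tyr, Dct, Mlana and Slc45a2 had log2 fold changes of -0.36, -0.35, -0.44 and -0.33, each with an unadjusted p under 0.05 (adjusted p from 0.856 to 0.903 by edgeR), and 5.41% of all tested genes reached that p. Sham CT12 replicate 1 held the highest Tyr (59.2 CPM), Slc45a2 (63.4 CPM) and Mlana (11.6 CPM) of the series and the highest strial marginal score (0.415). Without it CT12 gave -0.21 for Tyr, -0.17 for Dct, -0.24 for Mlana and -0.18 for Slc45a2. Without ADX CT12 replicate 3 they were -0.21 for Tyr, -0.26 for Mlana and -0.20 for Slc45a2, and without ADX CT12 replicate 1 Mlana was -0.71. Marginal cell genes had values of the same sign at CT12, where 10 of 10 log2 fold changes were negative, with a median of -0.29 and 0 called. With the strial marginal score as a covariate, CT12 gave log2 fold changes of -0.01 for Tyr, -0.02 for Dct, -0.08 for Mlana and 0.02 for Slc45a2, and at CT20 they were -0.13 for Tyr and -0.06 for Dct. Gpr143 at CT20 was -0.54 in the same fit. Over the mean of the 6 times, the same fit gave -0.02 for Tyr, -0.02 for Dct, 0.01 for Slc45a2, -0.23 for Gpr143 and -0.30 for Slc24a5. The genes of the score also had negative log2 fold changes, and Tyr, Dct and Slc45a2 followed the score across libraries. Smaller values in this fit follow partly from that, and the cause was not tested.

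Slc24a5 was the gene whose ADX and sham groups parted at the most times. All ADX libraries lay below all sham libraries at CT04, CT16, CT20 and CT24, and the shares of tested genes that did so were 8.463%, 6.495%, 4.132% and 6.012%. The gap was narrow at CT04, where the highest ADX library had 6.46 CPM and the lowest sham library 6.53 CPM. At CT24 these were 6.33 and 6.75 CPM. At CT16 Slc24a5 had 5.30, 5.34 and 6.02 CPM in ADX and 6.29, 6.58 and 14.7 CPM in sham, a log2 fold change of -0.72 (adjusted p = 0.508 by edgeR). The value of 14.7 CPM belongs to sham CT16 replicate 2, the library highest in choroid plexus genes, and without it the log2 fold change was -0.22. The mean over the 6 times was -0.20 without that library and -0.19 without the 3 libraries high in choroid plexus genes. Gpr143 also parted at CT24, with 0.952, 1.38 and 1.43 CPM in ADX and 1.47, 1.65 and 1.98 CPM in sham (-0.44, adjusted p = 0.856 by edgeR). Mlana went the other way at CT24, with 7.28, 7.99 and 9.05 CPM in ADX and 6.16, 7.15 and 7.17 CPM in sham (0.25, adjusted p = 0.949 by edgeR), where 6.029% of tested genes had every ADX library above every sham library.

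No pigment gene passed the test of a 24 h rhythm. A cosine of 24 h was fitted per status, and 0 of 10 were called in ADX (background 9.40%), 0 in sham (16.08%), 0 for the rhythm shared by both (32.50%) and 0 for the difference between ADX and sham (0%). DESeq2 and limma-voom called 0 in each of these tests as well, while the backgrounds given are those of edgeR only. At an unadjusted p under 0.05 there was 1 gene in ADX (Kit; 25.4% of tested genes), 0 in sham (31.0%), 2 for the shared rhythm (Tyr and Kit; 43.5%) and 0 for the difference (3.57%). The median peak-to-trough value of the 10 genes, on the log2 scale, was 0.21 in ADX and 0.21 in sham, and over all tested genes it was 0.18 in ADX and 0.22 in sham.

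Kit and Tyr came closest. Kit had a shared peak-to-trough value of 0.17 with a peak at 7.53 h (adjusted p = 0.0641 by edgeR). Kit in ADX averaged 90.3 ± 3.198 CPM at CT08 and 77.1 ± 10.7 CPM at CT20, and Kit in sham averaged 84.6 ± 4.43 CPM at CT08 and 77.7 ± 2.13 CPM at CT20 (SD, n = 3 each). Kit passed for the shared rhythm in only 5 of the fits that each left out 1 of the 36 libraries. It also passed in 4 of the other alternatives, and in none of the rest. These were without the 3 muscle-high libraries, with the muscle covariate, with the times of the column names and with the 6 times as free levels. In the main fit 32.50% of all tested genes passed for the shared rhythm. Tyr had a shared peak-to-trough value of 0.27 with a peak at 7.60 h (adjusted p = 0.0887 by edgeR). Its lowest sham group was CT16, with 29.0, 29.1 and 35.5 CPM, and its highest was CT12, with 40.2, 48.8 and 59.2 CPM. Tyr passed for the shared rhythm with the strial marginal score as a covariate (0.24, adjusted p = 0.00499 by edgeR), without sham CT20 replicate 2 (0.34, adjusted p = 0.0167 by edgeR) and in the test with the 6 times as free levels (adjusted p = 0.0225 by edgeR).

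The largest fitted swing was that of Tyrp1, 1.09 on the log2 scale with a peak at 0.252 h (adjusted p = 0.136 by edgeR), and it rested on few counts. Without ADX CT12 replicate 1 it was 1.496 (adjusted p = 0.0278 by edgeR). At CT24 Tyrp1 had 6, 10 and 33 counts in ADX and 2, 26 and 40 counts in sham, so libraries of 1 group differed by more than the fitted swing. Pmel had a shared value of 0.34 (adjusted p = 0.467 by edgeR) and Mitf one of 0.15 with a peak at 16.5 h (adjusted p = 0.146 by edgeR). With the strial marginal score as a covariate, Mitf passed at 0.17 (adjusted p = 0.00495 by edgeR) and Slc45a2 at 0.13 (adjusted p = 0.0210 by edgeR). Dct, at high depth in every library, had 0.07 (adjusted p = 0.839 by edgeR), the smallest of the 10.

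**Figure D3:**
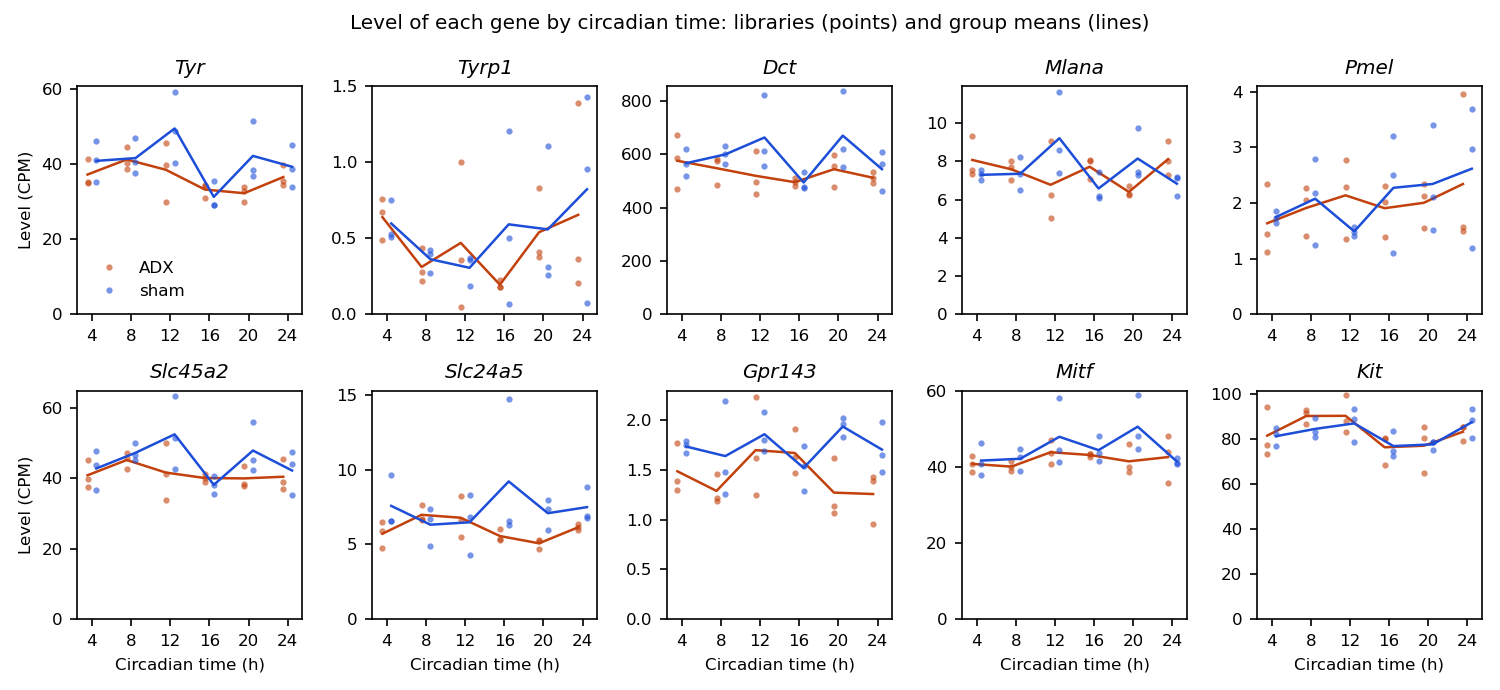
Level of each gene in CPM against circadian time in hours, with 1 point per library and lines through the means of 3 libraries, ADX drawn left of sham at each time. Single sham libraries at CT12 and CT20 stand out upward for Tyr, Dct, Mlana, Slc45a2 and Mitf, 1 sham library at CT16 for Slc24a5, and Tyrp1 and Pmel scatter within groups at CT24.

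Across libraries the pigment genes did not vary as a unit but fell into sets. Correlations here are of log2(CPM + 0.5) over the 36 libraries, which share depth and the dissection of each sample, and are given as descriptions. Tyr, Dct, Slc45a2, Mlana and Mitf went together, with Pearson's r from 0.54 (Tyr and Mitf) to 0.92 (Tyr and Slc45a2; Spearman's rho 0.90). Tyr and Slc45a2 kept an r of 0.94 within the 12 groups and 0.88 without the 2 libraries farthest from the median of Tyr. For Tyr and Mitf, r without the 2 farthest libraries was 0.25, and for Dct and Mitf it was 0.14, so these 2 relations rest on those libraries. The same 5 genes followed the score of 10 strial marginal cell genes, which include the potassium channel subunits Kcnq1 and Kcne1: r was 0.88 for Slc45a2 (rho 0.84; 0.81 without the 2 farthest libraries), 0.83 for Dct (rho 0.72; 0.67), 0.77 for Tyr (rho 0.69; 0.64), 0.72 for Mlana (rho 0.61; 0.55) and 0.72 for Mitf (rho 0.53; 0.43). Kcnj10 is the potassium channel of intermediate cells. Its r was 0.89 with Slc45a2, 0.87 with Tyr, 0.82 with Dct, 0.68 with Mlana and 0.64 with Mitf. Without the 2 libraries farthest from the median of Kcnj10, these were 0.82, 0.82, 0.65, 0.46 and 0.26. The list of 7 basal cell and spiral ligament genes gave 0.85 for Slc45a2, 0.81 for Dct, 0.78 for Tyr, 0.67 for Mitf and 0.59 for Mlana. The score of 6 intermediate cell genes gave lower values, from 0.42 for Mlana to 0.65 for Mitf. Genes of that list differed among themselves. With Tyr, Dct and Slc45a2, Met had an r of 0.72, 0.80 and 0.76, but Kcnj13 had -0.17, -0.16 and -0.18. Kcnj13 was highest in sham CT16 replicate 2, the library highest in choroid plexus genes. The part of Kcnj13 in the lower values of this score was not tested.

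**Figure D4:**
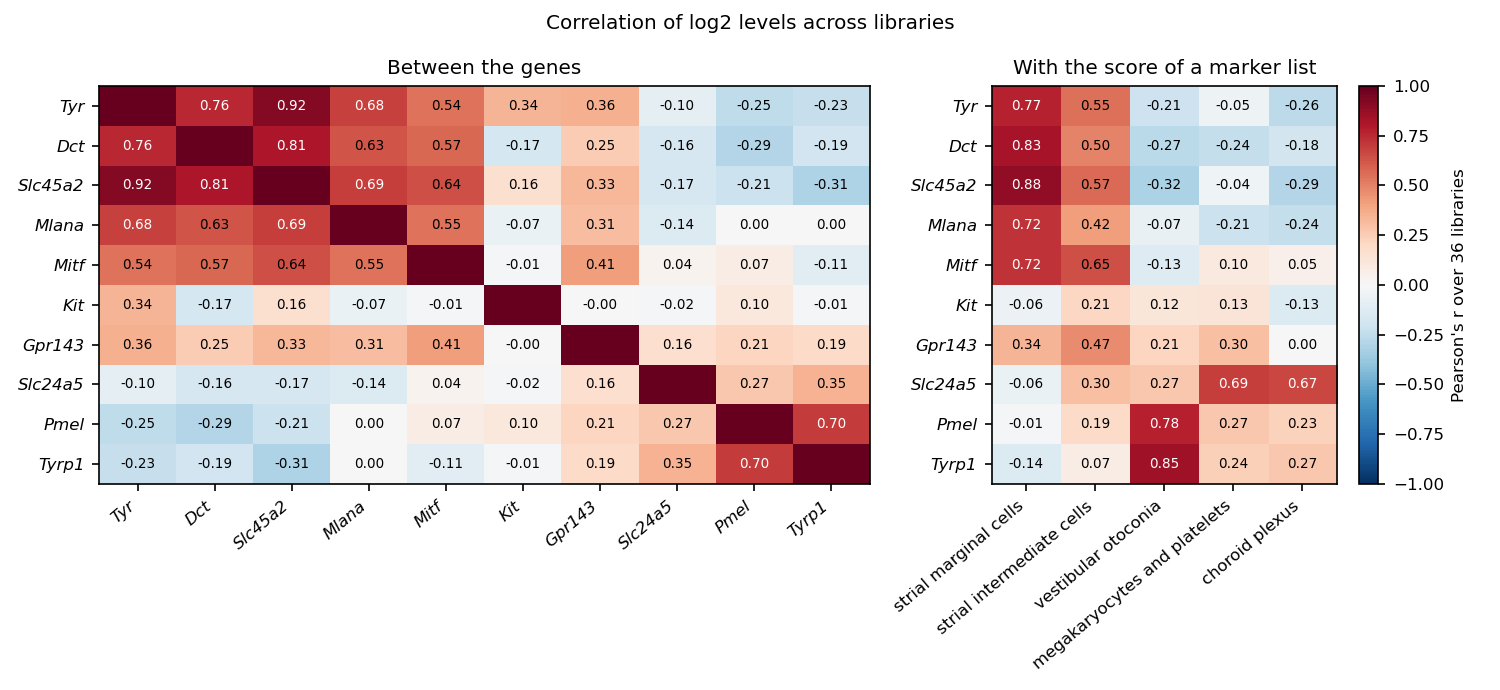
Pearson's r of log2 levels over 36 libraries between the 10 genes (left) and of each gene with the score of a marker list (right). Tyr, Dct, Slc45a2, Mlana and Mitf form a block that also follows the strial marginal score (r from 0.72 to 0.88), Pmel and Tyrp1 follow the vestibular otoconia score (0.78 and 0.85), and Slc24a5 follows the megakaryocyte score (0.69).

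Tyrp1 and Pmel formed another set that did not follow the stria. Their r with each other was 0.70 (rho 0.61; 0.63 without the 2 farthest libraries), and with the strial marginal score it was -0.14 for Tyrp1 and -0.01 for Pmel. Trpm1, a cation channel of melanocytes that is itself a Mitf target, went with them at trace level: it had 9 to 64 counts per library and an r of 0.76 with Tyrp1 and 0.62 with Pmel. Among 17711 genes with a mean of at least 1 CPM, those most like Tyrp1 were Nos2 (r 0.88) and Nox3 (0.84), and those most like Pmel were Mia (0.80) and Cib3 (0.75). Nox3 is an oxidase needed to form otoconia, the crystals of the vestibular maculae. A list of 5 otoconia genes (Oc90, Otop1, Nox3, Otol1 and Noxo1) was therefore drawn up after these values were seen, and Nox3 in it is one of the genes that prompted it. The otoconia score had an r of 0.85 with Tyrp1 (rho 0.79; 0.87 within groups; 0.80 without the 2 farthest libraries) and of 0.78 with Pmel (rho 0.76; 0.82 within groups; 0.74 without the 2 farthest). With Tyr, Dct and Slc45a2 it had -0.21, -0.27 and -0.32. The summed otoconia genes ranged from 31.3 to 57.9 CPM in ADX (median 39.96) and from 27.9 to 75.4 CPM in sham (median 37.8). The 4 libraries with the highest sums were sham CT20 replicate 1, sham CT24 replicates 2 and 3 and ADX CT12 replicate 1, and they had 28, 40, 26 and 22 counts of Tyrp1. With the otoconia score as a covariate, the log2 fold change over the 6 times was -0.02 for Tyrp1 and 0.00 for Pmel. The shared peak-to-trough value of Tyrp1 was then 0.51 (adjusted p = 0.226 by edgeR). Since likeness to Tyrp1 and Pmel prompted the list, smaller values in this fit follow partly from its choice, and the cause was not tested.

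Slc24a5 followed neither set. Its r with the strial marginal score was -0.06, and with each of the other 9 pigment genes it was 0.35 or less. The gene most like it was F5 (coagulation factor V; r 0.82, rho 0.76, 0.81 without the 2 farthest libraries), and F2rl3, a thrombin receptor of platelets, and Pf4 (platelet factor 4) were among the 8 most alike. A list of 7 megakaryocyte and platelet genes (Pf4, Ppbp, Itga2b, Gp1ba, Gp9, Gp6 and F2rl3), likewise drawn up after these values were seen and holding 2 of those genes, had an r of 0.69 with Slc24a5 (rho 0.80; 0.56 within groups; 0.72 without the 2 farthest libraries). These genes summed to between 602 and 1004 CPM in ADX (median 774) and between 642 and 1242 CPM in sham (median 889). With their score as a covariate, the Slc24a5 log2 fold change was -0.12 over the 6 times (adjusted p = 0.764 by edgeR), -0.43 at CT16 and -0.25 at CT20. Since likeness to Slc24a5 prompted the list, smaller values in this fit follow partly from its choice. The cause was not tested. The relation with choroid plexus genes rested on few libraries: r was 0.67 but rho 0.12, and r was 0.22 without the 2 farthest libraries. Sham CT16 replicate 2, the library highest in those genes, held 355 counts of Slc24a5, 120 of Oca2 (a melanosome transporter) and 1341 of Kcnj13 (a potassium channel). Sham CT04 replicate 2 and ADX CT12 replicate 3, also high in those genes, had 9.62 and 8.25 CPM of Slc24a5. They held 39 and 25 counts of Oca2, which had more than 20 counts in only 3 libraries and a median of 6.

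**Figure D5:**
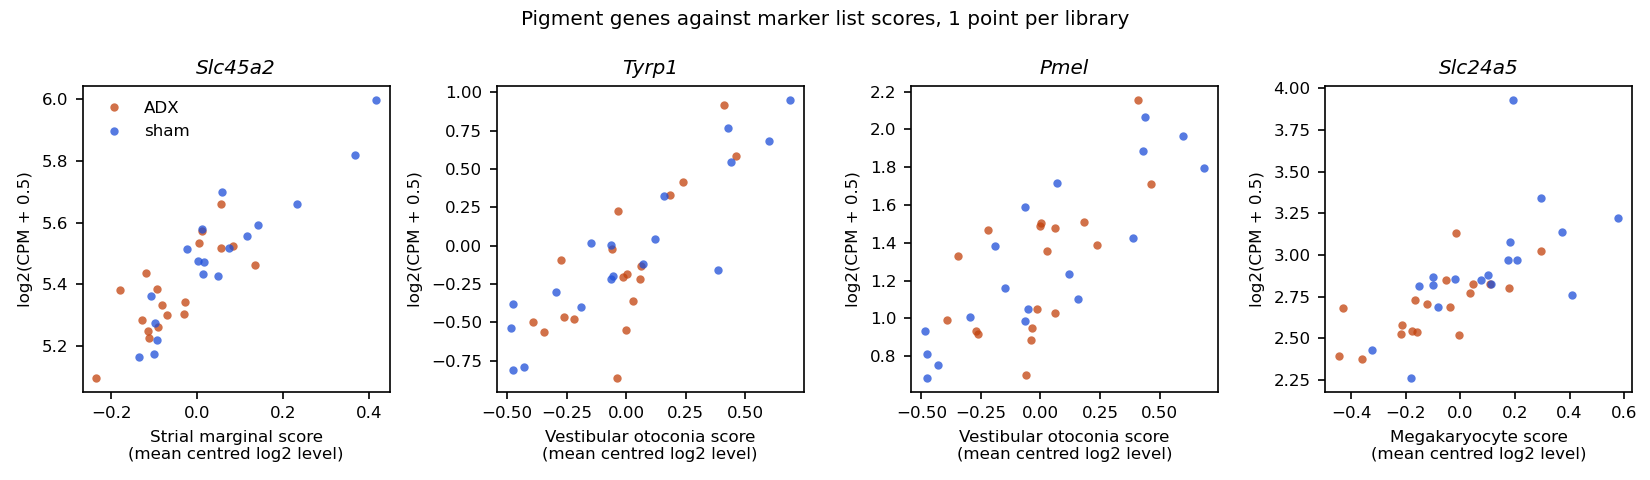
Log2(CPM + 0.5) of 4 pigment genes against the score of a marker list (mean centred log2 level of its genes), with 1 point per library. Slc45a2 follows the strial marginal score with r = 0.88, Tyrp1 and Pmel follow the vestibular otoconia score with r = 0.85 and 0.78, and Slc24a5 follows the megakaryocyte score with r = 0.69 and sham CT16 replicate 2 lies above the rest.

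Kit and Gpr143 had weaker relations with these lists. The r of Kit with any other pigment gene was at most 0.34 (Tyr), with the strial marginal score -0.06 and with the mast cell list -0.05, and the highest with a list shown was 0.44 with the Schwann cell list. Gpr143 reached 0.47 with the intermediate cell score (0.41 without the 2 farthest libraries), above the 0.42 of Mlana, and 0.41 with Mitf, at 25 to 54 counts per library. For the mean pigment score, made of the 8 genes other than Mitf and Kit, the most alike of 17711 genes were Ssc4d (r 0.78), Cdon (0.78), Rnf149 (0.74), Tbx3 (0.71) and Enpep (0.69), followed by Pkp1, Msi1, Bricd5, Cpd and Ucma (0.67 to 0.69). Genes overlapping on the other strand did not go with the members: r was 0.07 between Slc24a5 and Myef2, which share 4050 bases, and -0.14 between Pmel and Cdk2, which share 837 bases. Mitf and Dct overlap the short antisense-strand genes Gm15531 and 4930435M08Rik. The libraries were stranded, but the strand setting of the counting is not given, so reads of overlapping genes cannot be fully told apart.

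Upstream pigment cell signals include Kitl (the ligand of Kit), Ednrb (the endothelin receptor of melanoblasts) and Sox10 (a neural crest factor that activates Mitf). These genes differed little between ADX and sham over the mean of the 6 times. Kitl averaged 37.7 ± 3.48 CPM in ADX and 37.8 ± 3.50 CPM in sham, Ednrb 31.6 ± 3.81 CPM in ADX and 30.7 ± 4.07 CPM in sham, and Sox10 129 ± 9.52 CPM in ADX and 129.5 ± 16.198 CPM in sham (SD, n = 18 each). Their log2 fold changes over the mean of the 6 times were 0.00, 0.04 and -0.01, and each 95% interval lay within 0.14 of 0. At CT04 alone, Ednrb had 0.345 (95% interval 0.11 to 0.58, adjusted p = 0.337 by edgeR). Sox10 is also a Schwann cell gene. Of 15 tested regulators, 0 were called between ADX and sham, the median log2 fold change was 0.03, and 3 had an unadjusted p under 0.05, against 15.6% of all tested genes. These 3, named after their values were seen, were Pax3 (-0.15, adjusted p = 0.297 by edgeR), a factor that activates Mitf, Tfec (-0.16, adjusted p = 0.235 by edgeR), a relative of Mitf, and Lef1 (0.17, adjusted p = 0.206 by edgeR), a factor of the Wnt pathway. Pax3 at CT12 was -0.55 (adjusted p = 0.800 by edgeR). Kcnj10 averaged 333 ± 20.9 CPM in ADX and 352 ± 47.3 CPM in sham, a log2 fold change of -0.08 (-0.16 to 0.00), and all 6 intermediate cell genes had negative log2 fold changes in the mean, with 0 called.

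Some genes of the general machinery of melanosomes passed the test of rhythm; whether they differed in this from the pigment genes was not tested. Of 26 melanosome biogenesis and transport genes, 2 were called rhythmic in ADX (9.40% of all tested genes), 9 in sham (16.08%) and 12 for the shared rhythm (32.50%). Bloc1s5 and Dtnbp1, subunits of the BLOC-1 complex that sorts cargo to lysosome-related organelles, had shared peak-to-trough values of 0.24 and 0.17 and peaks at 6.40 and 7.25 h (adjusted p = 7.4e-05 and 0.000396 by edgeR). Hps4 peaked at 16.5 h (0.22, adjusted p = 0.000834 by edgeR) and Rabggta, a prenyl transferase for Rab proteins, at 9.51 h (0.19, adjusted p = 0.000991 by edgeR). Rab38, a small GTPase that carries Tyr and Tyrp1 to melanosomes, had the largest shared value of the 12, 0.40, and peaked at 23.9 h (adjusted p = 0.00223 by edgeR). Of the 15 regulators, Zeb2 (0.19, peak at 22.1 h), Tfeb (0.18, peak at 14.5 h) and Erbb3 (0.16, peak at 9.94 h) were called for the shared rhythm, Zeb2 also in sham, and 0 in ADX. Of the 6 intermediate cell genes, 0 were called in any test of rhythm by edgeR, and at an unadjusted p under 0.05 there was 1 in sham and 1 for the shared rhythm; at the backgrounds above, a list of this length would hold few calls. In the comparison of ADX with sham, 0 of the 26 melanosome genes were called over the mean of the 6 times, with a median log2 fold change of 0.00 and 7 at an unadjusted p under 0.05, against 15.6% of all tested genes.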

How the data were processed

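RNA of 36 cochlear samples was sequenced from stranded mRNA libraries, per the labels' protocols. Reads were aligned with STAR 2.4.0i to mm10, per the submitters' processing notes, and neither the counter nor its strand setting is stated there. The deposited table holds raw counts per gene, not normalized by the authors, with a gene length per the file headers. Columns were matched to samples by status, replicate number and time; 30 of 36 column names give a time 1 h before the label, and the labels' times were used. Identifiers were matched to GENCODE M21 (96.4% of 39017).

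Tests were run with edgeR 4.0.16 under R 4.3.3 (TMM, factors 0.981 to 1.03; filterByExpr at 0.387 CPM, which left out 16461 genes with 0.0779% of counts; quasi-likelihood test; 24 residual degrees of freedom). All 12 groups entered one fit, with contrasts at each time and over their mean. The 24 residual degrees of freedom are those of that fit. Rhythms were tested in a separate fit of the same libraries, with a mean and a 24 h cosine per status. P-values were adjusted over all 22556 tested genes, with a threshold of 0.05. DESeq2 1.42.0 and limma 3.58.1 (voom) were alternatives, as were covariates, left-out libraries and a replicate block. The scripts were tested on simulated counts. List scores are means of centred log2(CPM + 0.5). The genes named are the 10 members, called genes of the fixed pathway lists (the 6 of lowest p where more were called), the 10 genes most like the pigment score, and markers; other likenesses were chosen after the values were seen. The members and lists were chosen with earlier results of these data known. Same-numbered libraries did not deviate together in the median (r -0.00613 over 198 pairs, from -0.373 to 0.265), so replicate numbers were not used to pair samples. A median over all groups cannot exclude pairing within some of them. Figures were drawn with matplotlib 3.10.9.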

Additional observations from a re-analysis of the deposited data

How the results depend on the processing

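Of 11 counts of called pigment genes, all 0, 7 kept 0 under every alternative run. Over the mean of the 6 times the count was 1 with the skeletal muscle covariate (Gpr143). For the rhythm in sham it was 1 with the strial marginal covariate (Mitf) and 1 in the test with the 6 times as free levels (Tyr), and for the rhythm in ADX it was 2 with the strial marginal covariate (Tyr and Slc45a2). For the shared rhythm it was 2 without the 3 muscle-high libraries (Tyrp1 and Kit), 3 with the strial marginal covariate (Tyr, Mitf and Slc45a2), 1 with the muscle covariate, 1 with the times of the column names (Kit in both) and 2 in the test with the 6 times as free levels (Tyr and Kit). It ranged from 0 to 1 when 1 library was left out. The cause was not tested. Of all genes, the muscle covariate called 193 for the mean. The strial marginal covariate called 3826 for the rhythm in sham and 2863 in ADX, and free levels 3652 in sham. For the shared rhythm 6891 were called without the muscle-high libraries, 7969 with the strial marginal covariate and 7227 with the muscle covariate. The column times gave 7266 and free levels 7495, against 7331 of 22556 tested genes in the main fit. Whether pigment genes differed from these was not tested.

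Some small log2 differences between ADX and sham changed sign. Over the mean of the 6 times, Kit was -0.0022 without the muscle-high libraries, -0.014 without the 4 libraries of highest Gh, -0.0023 with the strial marginal covariate and -0.0076 with the muscle covariate. The strial marginal covariate gave 0.12 for Mlana, 0.013 for Mitf and 0.012 for Slc45a2, and 0.017 for Slc45a2 at CT12. Mlana was 0.032 without the choroid plexus-high libraries, Pmel 0.0042 with the otoconia covariate and 0.031 with the megakaryocyte covariate, and Tyrp1 0.013 with the megakaryocyte covariate. Tyrp1 at CT20 was 0.14 with limma-voom, 0.12 with the otoconia covariate and 0.32 with the megakaryocyte covariate. With 1 library left out, the mean ranged from -0.011 to 0.024 for Kit, from -0.062 to 0.014 for Mlana and from -0.15 to 0.0076 for Pmel, and the CT20 value from -0.092 to 0.088 for Kit, from -0.46 to 0.13 for Pmel and from -0.48 to 0.87 for Tyrp1. The otoconia, megakaryocyte and choroid plexus alternatives were chosen after seeing the data.

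With the replicate number as a block, 0 pigment genes were called in any comparison, and over all genes 152 were called for the mean (162 without the block), 3415 for the rhythm in sham, 1996 in ADX and 7110 shared. Of all genes, DESeq2 called 630 for the mean, where edgeR called 162 and limma-voom 140. At CT20 DESeq2 called 175 of all genes and edgeR 1. Counts of Tyrp1 (1 to 40) limit what can be said of it.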
